A study of Mus musculus with 12 samples.

Results

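The 7 genes described here, Slc12a1, Umod, Kcnj1, Bsnd, Casr, Slc9a3 and Atp1b1, encode proteins with which the thick ascending limb of the nephron takes up salt, senses calcium and secretes uromodulin. They were chosen by gene symbol, 7 of the 24421 symbols in the deposited tables, and are listed there under 10 of 34600 RefSeq transcripts. Total RNA was sequenced from whole kidneys of male C57BL/6 mice at 6 weeks of age, in 4 groups of 3 libraries. WT baseline and Tet2-/- baseline mice had no operation. WT IR and Tet2-/- IR mice had the pedicle of the right kidney clamped for 60 min, lost the left kidney, and were sampled at 24 h of reperfusion, so the difference between IR (ischemia-reperfusion) and baseline includes the surgery and the nephrectomy. Tet2-/- mice carry a germline loss of the 5-methylcytosine dioxygenase Tet2, which reaches blood cells as well as the kidney, and the study's methods derive both genotypes from Tet2+/- breeders. Slc12a1 and Bsnd were called lower after IR in the Tet2-/- kidneys, as were 11.6% of all genes tested. In edgeR's quasi-likelihood test no gene of the 7 was called between WT IR and WT baseline, or between genotypes at baseline or after IR. Nor was the difference between the genotypes' responses to IR called for any of them. DESeq2 called Slc12a1 and Bsnd between genotypes after IR, and Atp1b1 for the difference in response. Umod, the most abundant of the 7, kept a high level in 2 of the 3 Tet2-/- IR kidneys.

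The targeted gene did not follow the genotype labels at baseline. Tet2 reached 9.15, 6.25 and 7.33 FPKM (read counts scaled by transcript length and library total) in the libraries labelled WT baseline and 9.24, 16.6 and 10.3 FPKM in those labelled Tet2-/- baseline, all 3 above all WT values. After IR it was 9.34, 3.97 and 3.86 FPKM in the libraries labelled WT and 2.64, 3.197 and 1.76 FPKM in those labelled Tet2-/-. The counts cover the whole transcript, and the part of Tet2 that the allele removes is not given in the sources used here, so a transcript that is still made but not functional would also be counted. The genotypes below are those of the labels. The libraries held 51007366 to 107969888 counts when each gene was represented by 1 transcript. Tubular injury genes followed the IR label, since the summed level of 7 such genes ran from 226.5 to 539.6 FPKM in the 6 baseline libraries and from 1674 to 25980 FPKM in the 6 IR libraries.

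The thick ascending limb reabsorbs sodium chloride without water, which dilutes the urine and builds the salt gradient of the medulla. Sodium, potassium and chloride enter together across the luminal membrane through the cotransporter NKCC2, potassium returns to the lumen through the channel ROMK, chloride leaves on the blood side through ClC-K channels, and the sodium pump drives the whole process. The positive charge that potassium leaves in the lumen pulls calcium and magnesium between the cells. Loss of NKCC2, ROMK or barttin in people causes Bartter syndrome, a salt-wasting disease. The outer medulla, where much of this segment lies, works at low oxygen tension.

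Promoters of 6 of the 7 genes were found in RefSeq on GRCm38.p6, each from 250 bases before to 50 bases after the start of transcription, and Bsnd had no entry. Those of Slc12a1, Umod and Atp1b1 are shown because the first of these genes fell after IR in Tet2-/- kidneys, the second did not pass the test, and the third differs most from both in base composition. Capitals mark CG dinucleotides, the sites that DNA methylation and TET enzymes act on, and the Umod promoter has none. They lie at chr2:125152350-125152649 on the plus strand (Slc12a1), chr7:119479213-119479512 on the minus strand (Umod) and chr1:164458306-164458605 on the minus strand (Atp1b1), and each is written 5′ to 3′ along its gene.
Slc12a1: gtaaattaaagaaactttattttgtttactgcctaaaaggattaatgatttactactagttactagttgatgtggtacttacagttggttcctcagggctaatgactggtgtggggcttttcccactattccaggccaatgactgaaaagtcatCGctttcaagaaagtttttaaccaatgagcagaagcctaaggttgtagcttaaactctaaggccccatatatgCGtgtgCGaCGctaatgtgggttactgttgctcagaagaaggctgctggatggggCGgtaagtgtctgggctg
Umod: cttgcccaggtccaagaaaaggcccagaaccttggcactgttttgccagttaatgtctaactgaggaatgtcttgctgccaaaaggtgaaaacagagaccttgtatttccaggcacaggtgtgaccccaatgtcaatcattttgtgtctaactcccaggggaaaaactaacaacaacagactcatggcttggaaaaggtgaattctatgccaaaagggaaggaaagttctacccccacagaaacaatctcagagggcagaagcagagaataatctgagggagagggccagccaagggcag
Atp1b1: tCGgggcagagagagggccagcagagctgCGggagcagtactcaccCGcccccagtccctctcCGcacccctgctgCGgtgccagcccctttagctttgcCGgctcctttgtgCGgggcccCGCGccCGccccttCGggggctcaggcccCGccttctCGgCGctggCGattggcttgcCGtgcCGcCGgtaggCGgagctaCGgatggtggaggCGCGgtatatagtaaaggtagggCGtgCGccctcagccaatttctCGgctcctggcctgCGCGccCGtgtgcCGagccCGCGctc

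The genes separated by these CG dinucleotides. The Umod promoter had 0 in 300 bases, which 5.43% of all promoters share, whereas Kcnj1 had 2, Casr 4, Slc12a1 5, Slc9a3 25 and Atp1b1 31, with a median of 7 over all promoters. The count of Atp1b1 was reached or undercut by 90.5% of promoters. TATAAA, read on both strands, stood in none of the 6 promoters and in 13.6% of the 32851 promoters of the same length. Methylation was not measured in these libraries, and the letters are given as a description.

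On the mm9 coordinates of the deposited tables, Slc12a1 spans chr2:124978336-125055737 (plus strand), Umod chr7:126606222-126622776 (minus), Kcnj1 chr9:32180003-32206779 (plus), Bsnd chr4:106156063-106164848 (minus), Casr chr16:36493782-36562220 (minus), Slc9a3 chr13:74258963-74303512 (plus) and Atp1b1 chr1:166367230-166388486 (minus). Slc12a1, Umod and Kcnj1 each had a second transcript, whose count was 98.9% to 99.9%, 97.4% to 99.4% and 96.8% to 100.1% of the chosen transcript's in the same library, so the values do not separate their isoforms.

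On the FPKM scale, which divides by transcript length, the order of the mean levels in WT baseline kidneys was Umod, Atp1b1, Slc12a1, Kcnj1, Bsnd, Slc9a3 and Casr. The ranges of Umod and Atp1b1, of Slc12a1 and Kcnj1, of Bsnd and Slc9a3, and of Slc9a3 and Casr overlapped between libraries. Within each of the 3 libraries the order of these 4 pairs was nevertheless the same as that of the means. In Tet2-/- baseline kidneys the order was the same and only Umod and Atp1b1 overlapped. In Tet2-/- IR kidneys Slc9a3 stood before Bsnd, and of the 6 pairs of neighbours only Atp1b1 and Slc12a1 did not overlap. Umod took 0.236% to 0.604% of all counts in the 9 libraries outside the Tet2-/- IR group, and 0.7324%, 0.898% and 0.1275% in that group.

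**Figure D1:**
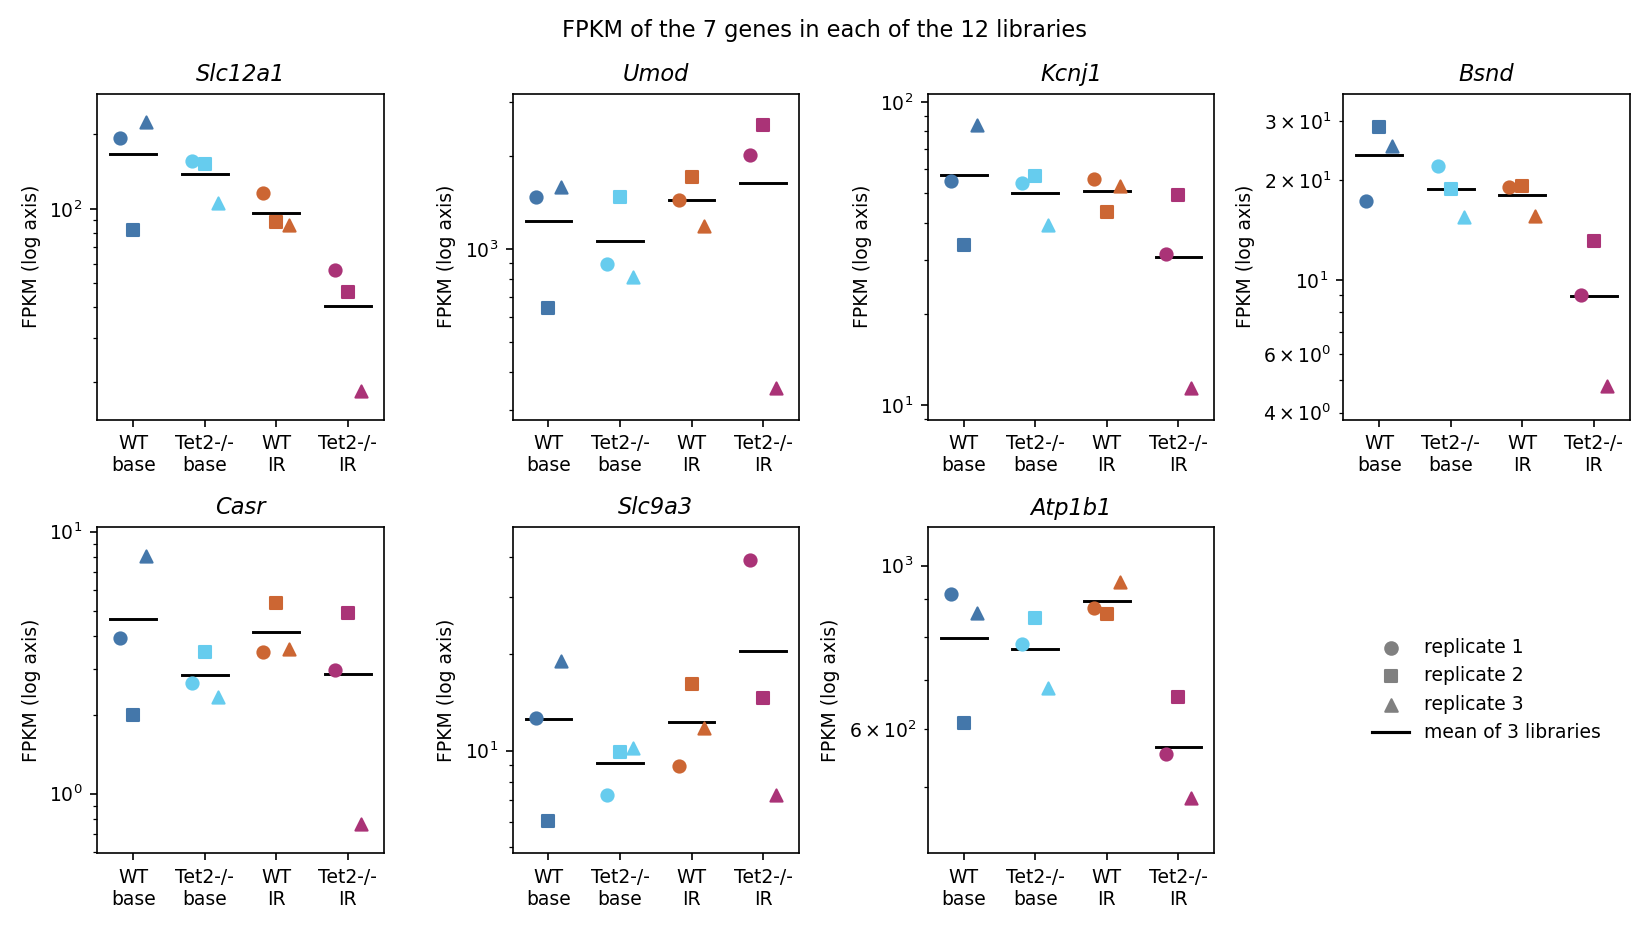
FPKM (log axis) of each gene in each library, with 1 symbol per replicate number and a line at the mean of the 3 libraries of a group. Slc12a1, Bsnd and Atp1b1 lie lower in all 3 Tet2-/- IR libraries than in any library of the Tet2-/- baseline and WT IR groups, while Umod spreads from 354 to 2512 FPKM in the Tet2-/- IR group.

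Slc12a1 encodes NKCC2, the luminal cotransporter that loop diuretics block. It was at 194, 82.1 and 224 FPKM in the WT baseline libraries and at 157, 152 and 106 FPKM in the Tet2-/- baseline libraries. After IR it was at 116, 88.2 and 85.9 FPKM in WT kidneys and at 56.6, 46.0 and 18.3 FPKM in Tet2-/- kidneys. The 3 Tet2-/- IR values were the lowest of all 12, and the WT IR values overlapped the WT baseline only through replicate 2 of that group. The group means were 167 ± 74.9, 138 ± 28.1, 96.6 ± 16.6 and 40.3 ± 19.8 FPKM (SD, n = 3) in this order. Even the lowest library held 7999.5 counts on Slc12a1.

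Kcnj1 encodes ROMK, the luminal potassium channel of this segment and of the collecting duct. It was at 54.8, 33.8 and 84.0 FPKM in WT baseline and at 54.1, 56.9 and 39.1 FPKM in Tet2-/- baseline kidneys. The IR values were 55.5, 43.4 and 53.0 FPKM in WT and 31.5, 49.4 and 11.4 FPKM in Tet2-/- kidneys. All groups overlapped in FPKM, and the low Tet2-/- IR mean of 30.7 ± 19.0 FPKM (SD, n = 3) rested on replicates 1 and 3. On the TMM scale of the edgeR test, every Tet2-/- IR value lay below every Tet2-/- baseline value. The share of all genes that did so on that scale was not computed.

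Bsnd encodes barttin, the subunit that ClC-K chloride channels need to reach the membrane, which intercalated cells also make. Its level was 17.3, 28.9 and 25.3 FPKM in WT baseline and 22.1, 18.8 and 15.5 FPKM in Tet2-/- baseline libraries. WT IR libraries held 19.1, 19.2 and 15.6 FPKM, and Tet2-/- IR libraries 9.03, 13.1 and 4.80 FPKM. As for Slc12a1, the 3 Tet2-/- IR values lay under all others. The means of the 4 groups were 23.8 ± 5.95, 18.8 ± 3.31, 17.98 ± 2.02 and 8.97 ± 4.14 FPKM (SD, n = 3).

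Atp1b1 encodes the beta subunit with which the sodium pump leaves the endoplasmic reticulum, in all tubule segments. It was at 915, 610.0 and 863 FPKM in WT baseline, 783, 848 and 682 FPKM in Tet2-/- baseline, 876, 860.0 and 949 FPKM in WT IR and 555, 662 and 483 FPKM in Tet2-/- IR libraries. Replicates differed less than for the other 6 genes in all 4 groups, with coefficients of variation of 20.5%, 10.9%, 5.29% and 15.8% in the same order. The Tet2-/- IR libraries lay under the WT IR and Tet2-/- baseline libraries without overlap, and replicate 2 of the WT baseline group reached down among them.

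Slc9a3 encodes NHE3, the luminal sodium-proton exchanger of the thick ascending limb and, above all, of the proximal tubule. It was at 12.7, 6.05 and 19.0 FPKM in WT baseline and at 7.29, 9.90 and 10.2 FPKM in Tet2-/- baseline kidneys. WT IR kidneys had 8.95, 16.1 and 11.8 FPKM, and Tet2-/- IR kidneys 39.4, 14.6 and 7.24 FPKM. The value of 39.4 FPKM in replicate 1 was the highest of the 12 libraries and the other two lay within the range of the remaining groups.

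Casr encodes the calcium-sensing receptor of the blood side, which restrains salt and calcium uptake in this segment. It was the least abundant of the 7, at 3.91, 2.004 and 8.05 FPKM in WT baseline, 2.66, 3.48 and 2.34 FPKM in Tet2-/- baseline, 3.48, 5.35 and 3.56 FPKM in WT IR and 2.95, 4.89 and 0.767 FPKM in Tet2-/- IR libraries. All groups overlapped. The lowest library still held 328 counts on Casr.

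Umod encodes uromodulin, or Tamm-Horsfall protein, which the thick ascending limb secretes into the urine. It was at 1472, 642 and 1584 FPKM in WT baseline and at 891, 1470 and 807 FPKM in Tet2-/- baseline libraries. After IR it was at 1439.5, 1704 and 1188 FPKM in WT and at 2018, 2512 and 354 FPKM in Tet2-/- libraries. The Tet2-/- IR group thus held the 2 highest and the lowest of the 12 values, and its coefficient of variation was 69.4%.

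In 3 of the 4 groups 1 library was lowest for most of the genes. Replicate 2 of WT baseline was the lowest of its group for 6 of the 7 genes and the highest for Bsnd, and replicate 3 of Tet2-/- baseline was the lowest for 6, all but Slc9a3. Replicate 3 of Tet2-/- IR was the lowest of its group for all 7. In WT IR the lowest values were spread over the libraries, 2 in replicate 1, 2 in replicate 2 and 3 in replicate 3. Replicate 3 of Tet2-/- IR also stood apart in adipocyte genes, with 601 FPKM summed over 7 markers against 114 and 81.4 FPKM in the other Tet2-/- IR libraries, Cfd at 108 FPKM and Adipoq at 10.0 FPKM. WT baseline libraries ran from 59.7 to 274 FPKM in the same sum, with the highest in replicate 3, Tet2-/- baseline from 38.6 to 72.4 and WT IR from 15.1 to 72.8. Values of the 7 genes without Tet2-/- IR replicate 3 stand in each comparison that includes it, and the part of the adipocyte genes in them was not tested. Such values are not given for the related genes below.

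The first comparison asked whether the loss of Tet2 changed the unchallenged kidney. None of the 7 genes was called between Tet2-/- and WT baseline kidneys, where a call needed an adjusted p under 0.05 in edgeR's quasi-likelihood test and an absolute log2 fold change over 1. None had an unadjusted p under 0.05 in edgeR or in DESeq2. Of the 16086 genes tested, 0.0124% were called. Slc12a1 differed by a log2 fold change of -0.18 (SE 0.36, 95% interval -1.02 to 0.65) and Umod by -0.14 (SE 0.38, -1.02 to 0.75). The narrowest interval was that of Atp1b1, 0.04 (-0.43 to 0.51), whose sign turned to -0.02 when the libraries were scaled by their totals alone. The largest difference was that of Casr, -0.63 (SE 0.45), which was 0.03 without WT baseline replicate 3. The intervals of Slc12a1 and Umod thus reached further on the lower side than on the higher.

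In WT kidneys, no gene of the 7 was called between IR and baseline, against 2.35% of 16015 genes. Slc12a1 differed by -0.86 (SE 0.37, adjusted p = 0.222) and Bsnd by -0.47 (SE 0.19, adjusted p = 0.196 in edgeR's quasi-likelihood test), the only one of the 7 with an unadjusted p under 0.05 (0.0401), a level that 3640 of the 16015 reached. DESeq2 gave 2 genes an unadjusted p under 0.05 and called none. Umod, at 0.15 (SE 0.36), and Atp1b1, at 0.11 (SE 0.22), were on the higher side, and Kcnj1 (-0.25), Casr (-0.25) and Slc9a3 (-0.11) on the lower. The sign of each of these 5 turned when a single WT baseline library was left out. Libraries with the same number deviated together from their group means in this comparison. With the replicate number as a block the count over all genes rose from 376 to 987, no gene of the 7 was called, and Slc12a1 was at -0.74 (adjusted p = 0.133).

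In Tet2-/- kidneys, Slc12a1 and Bsnd fell after IR. Slc12a1 was 4.14-fold lower than in Tet2-/- baseline kidneys (log2 fold change -2.05, SE 0.38, adjusted p = 0.00455 in edgeR's quasi-likelihood test, lower in 3 of 3 libraries than in any baseline library). Bsnd was 2.55-fold lower (-1.35, SE 0.30, adjusted p = 0.00907), also without overlap. These 2 of 7 stand against 11.6% of the 16359 genes tested that were called lower, and 24.3% were called in either direction. Fewer cells of the thick ascending limb and less RNA in each of them cannot be told apart in whole kidney. Both calls held in all 17 alternatives in which the fold limit was kept. Without Tet2-/- IR replicate 3 they were -1.73 (adjusted p = 0.00235) and -1.09 (adjusted p = 0.00409).

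Atp1b1 also passed the adjusted p, but not the fold limit, at -0.71 (SE 0.21, adjusted p = 0.0287). With the fold limit dropped, 20.3% of genes were lower, which includes the 11.6% that also passed that limit. Across alternatives the adjusted p of Atp1b1 ran from 1.19e-05 with DESeq2 to 0.116 without Tet2-/- baseline replicate 2, over 0.05 in some. The fold limit was passed in none of them. Without Tet2-/- IR replicate 3, edgeR gave Atp1b1 -0.66 (adjusted p = 0.0406). In FPKM, Slc12a1, Bsnd and Atp1b1 were the 3 of 7 genes with every Tet2-/- IR value below every Tet2-/- baseline value, as were 17.9% of all genes. Kcnj1 was at -0.995 (SE 0.42, adjusted p = 0.0944). It was called lower with DESeq2 (-1.02, adjusted p = 0.0299) and without Tet2-/- IR replicate 2 (-1.43, adjusted p = 0.0333), and was at -0.63 (adjusted p = 0.0525) without replicate 3.

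The other 3 genes gave no call in Tet2-/- kidneys. Umod was at 0.33 (SE 0.62, 95% interval -1.10 to 1.76), at 0.79 without Tet2-/- IR replicate 3 and at -0.04 without replicate 2. Casr was at -0.28 (SE 0.52, -1.49 to 0.93), and at 0.14 without Tet2-/- IR replicate 3. Slc9a3 was at 0.89 (SE 0.53, adjusted p = 0.21), and its value depended on single libraries. It was 1.29 and called higher without Tet2-/- IR replicate 3 (adjusted p = 0.0428), and -0.05 without replicate 1, the library with 39.4 FPKM.

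**Figure D2:**
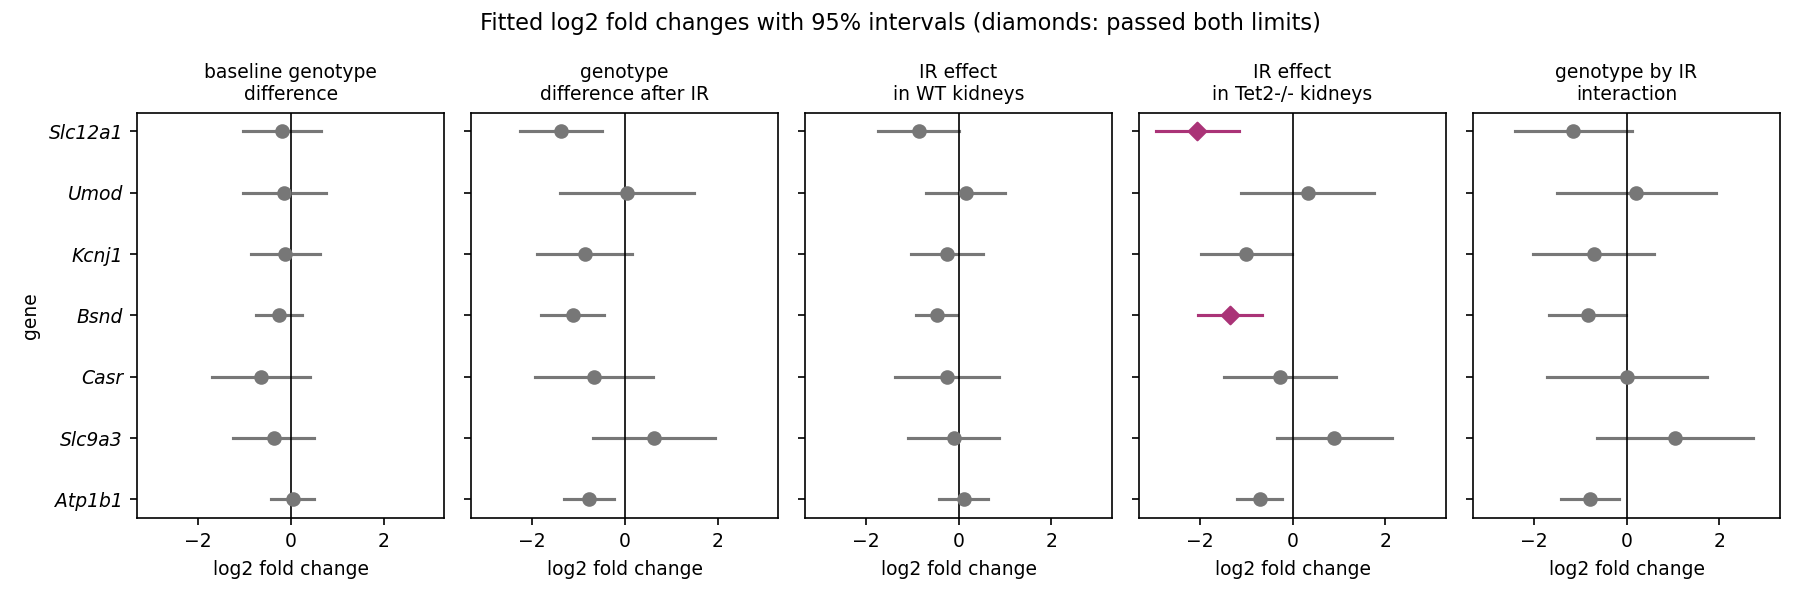
Log2 fold change of each gene from edgeR (points) with its 95% interval (lines) in the 5 comparisons, the second group against the first. Diamonds mark the 2 calls, Slc12a1 (-2.05) and Bsnd (-1.35) in Tet2-/- IR against Tet2-/- baseline kidneys, and the intervals of Umod, Casr and Slc9a3 include 0 in all 5.

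The direct comparison of Tet2-/- IR with WT IR kidneys asked whether the genotypes differed once injured. No gene of the 7 passed edgeR's quasi-likelihood test after adjustment, against 6.15% of 16186 genes, although 3 had an unadjusted p under 0.05, as had 4671 of the 16186. These were Slc12a1, 2.59-fold lower in Tet2-/- kidneys (-1.38, SE 0.37, adjusted p = 0.0627), Bsnd, 2.18-fold lower (-1.12, SE 0.29, adjusted p = 0.0539), and Atp1b1, 1.71-fold lower (-0.77, SE 0.23, adjusted p = 0.0781). The same 3 genes had all Tet2-/- IR values in FPKM below all WT IR values, as had 14.6% of the genes tested. The side of the threshold depended on the tool and on the settings. DESeq2 gave 4 genes an unadjusted p under 0.05 and called Slc12a1 (adjusted p = 0.00288) and Bsnd (adjusted p = 0.00385), and both were also called in a single fit of all 12 libraries. Atp1b1 passed the adjusted p in DESeq2 (-0.78, adjusted p = 8.87e-05) and in that edgeR fit (-0.77, adjusted p = 0.0236), but not the fold limit. Within edgeR, Bsnd was also called without the filter (adjusted p = 0.0493), over all transcripts (adjusted p = 0.0497) and without Tet2-/- IR replicate 2 (adjusted p = 0.0453). The replicate number as a block gave calls for Slc12a1 (-1.49, adjusted p = 0.04285) and Bsnd (-1.21, adjusted p = 0.04071), although these libraries share only a number. Without Tet2-/- IR replicate 3, edgeR gave Slc12a1 -1.05 (adjusted p = 0.0539) and Bsnd -0.86 (adjusted p = 0.0438), the latter under the fold limit. Atp1b1 was at -0.72 (adjusted p = 0.116) in that fit. Kcnj1 (-0.86), Casr (-0.66), Umod (0.04) and Slc9a3 (0.63) had intervals that included 0, and that of Umod ran from -1.40 to 1.49. Without Tet2-/- IR replicate 3 these 4 were at -0.49, -0.23, 0.50 and 1.03.

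Whether IR changed a gene differently in the 2 genotypes was tested by the interaction term in a fit of the 12 libraries, where the adjusted p alone had to be under 0.05. None of the 7 genes was called by edgeR, against 9.18% of 16741 genes, and 2 had an unadjusted p under 0.05, as had 4551 of the 16741. The fall in Tet2-/- kidneys exceeded that in WT kidneys by -1.15 for Slc12a1 (SE 0.57, 95% interval -2.41 to 0.11, adjusted p = 0.223) and by -0.84 for Bsnd (SE 0.38, adjusted p = 0.181). For Atp1b1 the difference was -0.78 (SE 0.29, unadjusted p = 0.0192, adjusted p = 0.107), and DESeq2, which gave 3 genes an unadjusted p under 0.05, called Atp1b1 alone (-0.83, adjusted p = 0.0107). A call in Tet2-/- kidneys and none in WT kidneys therefore does not show that Slc12a1 or Bsnd responded differently in the 2 genotypes. The interaction was -0.71 for Kcnj1 (SE 0.60), 0.21 for Umod (SE 0.78), 0.01 for Casr (SE 0.79) and 1.05 for Slc9a3 (SE 0.77), which was 0.10 without Tet2-/- IR replicate 1. Without Tet2-/- IR replicate 3 it was -0.82 for Slc12a1, -0.57 for Bsnd, -0.72 for Atp1b1, -0.34 for Kcnj1, 0.68 for Umod, 0.44 for Casr and 1.44 for Slc9a3.

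Over the 7 genes, 5 had a negative and 2 a positive log2 fold change in each of the comparisons after IR, with a median of -0.71 for IR in Tet2-/- kidneys, -0.25 for IR in WT kidneys and -0.77 between genotypes after IR, beside 0.04, -0.03 and 0.04 over all genes tested. At baseline 6 were negative, with a median of -0.18 beside 0.004 over all genes. These comparisons share libraries in pairs, so their values stand side by side and are not independent of each other. Scaling by library totals alone moved the median of all genes up by 0.23 for IR in Tet2-/- kidneys, by 0.14 in the interaction and by 0.10 between genotypes after IR, and left Slc12a1 and Bsnd called in the former.

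Ratios taken within a library do not depend on its scaling. Umod was 7.60, 7.83 and 7.06 times as abundant as Slc12a1 in the WT baseline libraries and 5.685, 9.675 and 7.63 times in the Tet2-/- baseline libraries. After IR the ratio was 12.4, 19.3 and 13.8 in WT kidneys and 35.65, 54.6 and 19.3 in Tet2-/- kidneys. All 6 IR libraries thus lay above all 6 baseline libraries, and the Tet2-/- IR replicate 3, which was lowest for both genes, still had a ratio of 19.3. The ratio shows unequal change of the 2 transcripts, not which of them moved, and it was formed after the values had been seen, so no test is given.

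Kcnj1 and Atp1b1 also stood higher relative to Slc12a1 in all IR libraries. Slc12a1 had the most negative log2 fold change of these genes after IR in both genotypes, so a gene that fell less has a higher ratio. The share of all genes with such ratios was not computed. Kcnj1 stood at 0.283 to 0.411 of the Slc12a1 level in the 6 baseline libraries and at 0.479 to 1.07 in the 6 IR libraries, without overlap. The Atp1b1 ratio ran from 3.85 to 7.43 at baseline and from 7.56 to 26.4 after IR. Slc9a3 reached 0.696, 0.3175 and 0.395 of the Slc12a1 level in the Tet2-/- IR libraries and at most 0.1825 in the other 9. Casr, at 0.01695 to 0.0359 at baseline and 0.0300 to 0.106 after IR, overlapped, and so did Bsnd, at 0.0893 to 0.352 and 0.1595 to 0.284.

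**Figure D3:**
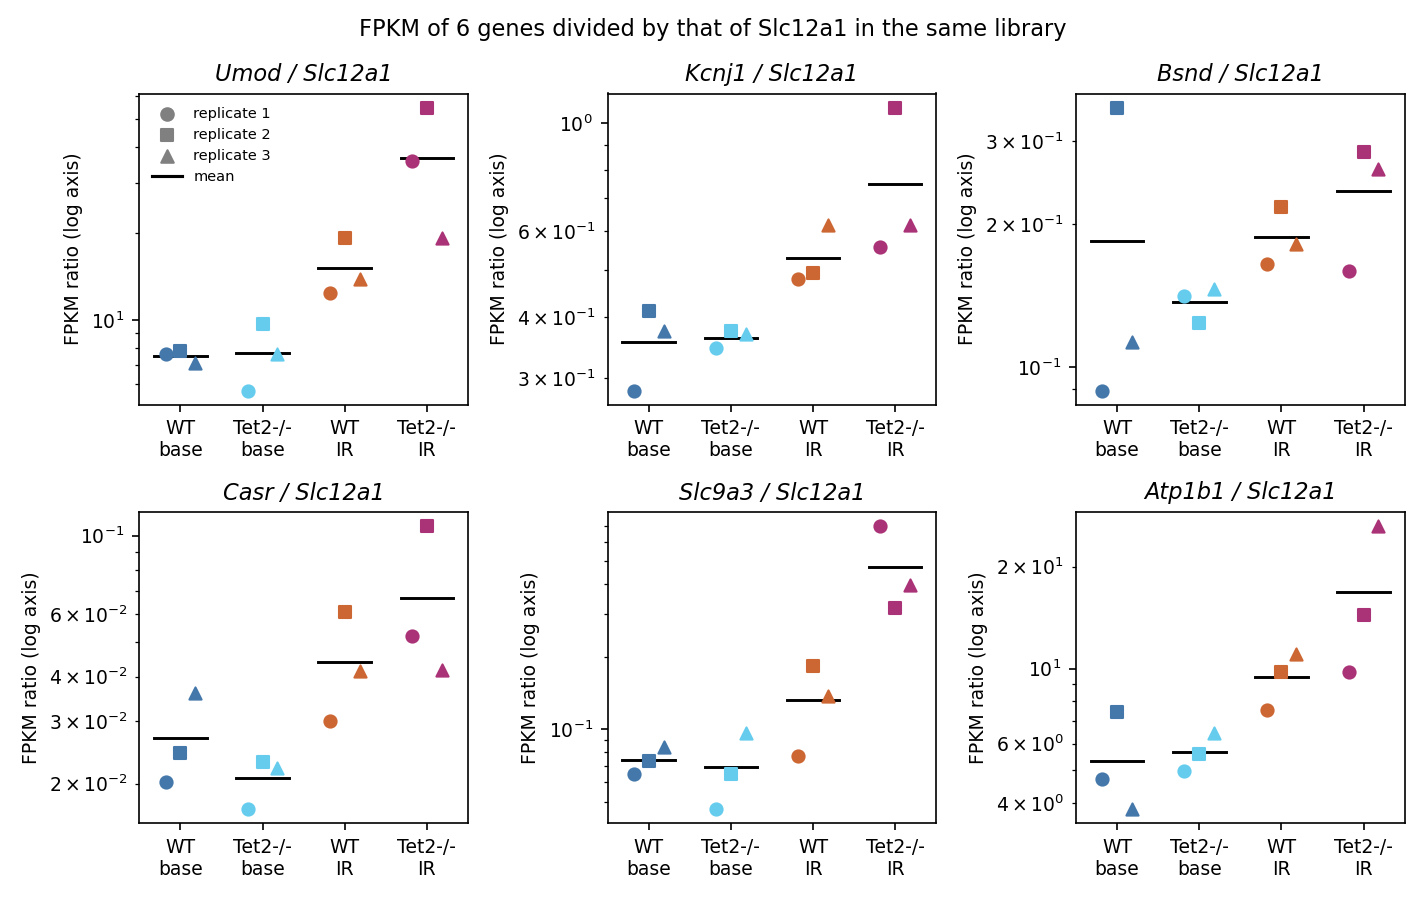
FPKM of 6 genes divided by the FPKM of Slc12a1 in the same library (log axis), by group, with 1 symbol per replicate number and a line at the mean. The Umod, Kcnj1 and Atp1b1 ratios are higher in all 6 IR libraries than in all 6 baseline libraries, and the Slc9a3 ratio is highest in the 3 Tet2-/- IR libraries. The share of all genes with such ratios was not computed.

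The pathway around these genes was read from 48 others in 4 lists: transport partners of the thick ascending limb (15), regulators of NKCC2, ROMK and uromodulin (14), partners of the sodium pump and NHE3 (11), and transcription factors of the segment (8). All 48 were tested. Between genotypes at baseline 0 were called by edgeR and 3 by DESeq2, with an unadjusted p under 0.05 for 7 and 9 genes. Over all genes, DESeq2 called 350 of 20108, and edgeR gave 1891 of 16086 an unadjusted p under 0.05. In WT kidneys 1 of 48 fell after IR, 2.08% beside the 2.35% of all genes, and DESeq2 called 6, beside 1073 of all 20120 genes in its fit. That gene was Tmem207, which is expressed in the thick ascending limb, at 13.6, 7.47 and 15.8 FPKM in WT baseline and 5.34, 3.46 and 2.64 FPKM in WT IR libraries (log2 fold change -1.77, SE 0.35, adjusted p = 0.0481). The call was lost in 7 of 17 alternatives, where the adjusted p reached 0.158.

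In Tet2-/- kidneys 3 of the 48 rose and 11 fell after IR, which is 29.2% beside the 24.3% of all genes (15 with DESeq2, beside 4303 of 20326), with a median of -0.30 beside 0.04. By list, the calls were 2 higher and 3 lower among transport partners, 1 higher and 3 lower among regulators, 0 higher and 2 lower among partners of the pump and of NHE3, and 0 higher and 3 lower among transcription factors. Egf, the epidermal growth factor that distal tubules secrete, went from 125, 204 and 118 FPKM to 26.4, 13.2 and 2.82 FPKM (-3.67, SE 0.72, adjusted p = 0.00577). Tmem207 went from 16.7, 16.4 and 9.97 FPKM to 1.999, 1.93 and 0.301 FPKM (-3.62, SE 0.61, adjusted p = 0.00289). Cldn10, a claudin gene whose isoforms were not told apart here, went from 89.6, 110.5 and 122 FPKM to 22.6, 35.6 and 19.1 FPKM (-2.34, SE 0.23, adjusted p = 0.000351). All 3 lost more on the log2 scale than Slc12a1 by their fitted values, and those differences were not tested.

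The 3 related genes that rose in Tet2-/- kidneys after IR were Cldn14, Ptgs2 and Slc12a4. Cldn14, a claudin that blocks the calcium path and that the calcium-sensing receptor induces, was at 0.115, 0.270 and 0.117 FPKM at baseline and at 1.84, 1.51 and 0.299 FPKM after IR (2.56, SE 0.69, adjusted p = 0.0204). Its call held in 12 of 16 alternatives, with an adjusted p of up to 0.0743. Ptgs2, or COX-2, which makes prostaglandins near the macula densa, went from 0.363, 0.192 and 0.104 FPKM to 2.59, 1.18 and 0.713 FPKM (2.52, SE 0.59, adjusted p = 0.0119). Both were low in every library. Slc12a4, a potassium-chloride cotransporter of many cell types, went from 4.83, 4.51 and 3.01 FPKM to 20.01, 17.7 and 15.6 FPKM (1.86, SE 0.19, adjusted p = 0.0004).

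Between Tet2-/- IR and WT IR kidneys 1 of the 48 related genes was higher and 3 were lower in edgeR, 8.33% beside 6.15% of all genes. DESeq2 called 9 of the 48, beside 1747 of 20243 genes. Slc12a4 was higher (1.22, SE 0.20, adjusted p = 0.0188). Pdzk1, a scaffold of brush border transporters, was at 519.5, 359 and 401 FPKM in WT IR and 95.8, 173.5 and 169 FPKM in Tet2-/- IR libraries (-1.64, SE 0.29, adjusted p = 0.0218), and Cldn10 was at 80.5, 73.3 and 64.7 FPKM against 22.6, 35.6 and 19.1 FPKM (-1.61, SE 0.20, adjusted p = 0.0114). The call of Cldn10 held in all 17 alternatives with the fold limit, that of Slc12a4 in 15 (adjusted p up to 0.0626) and that of Pdzk1 in 13 (up to 0.0714).

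In the interaction 1 of the 48 was called higher and 6 lower by edgeR, 14.6% beside 9.18%. DESeq2 called 10, beside 2815 of 20721 genes. Ptgs2 was higher (4.77, SE 0.96, adjusted p = 0.0139), with 0.651 to 2.595 FPKM in WT baseline and 0.171 to 0.489 FPKM in WT IR libraries, opposite to its order in Tet2-/- kidneys. Pdzk1 (-1.84, SE 0.34, adjusted p = 0.01), Cldn10 (-1.60, SE 0.25, adjusted p = 0.00557) and the transcription factor gene Irx1 (-1.60, SE 0.45, adjusted p = 0.0499) were lower. The call of Irx1 held in only 7 of 22 alternatives.

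**Figure D4:**
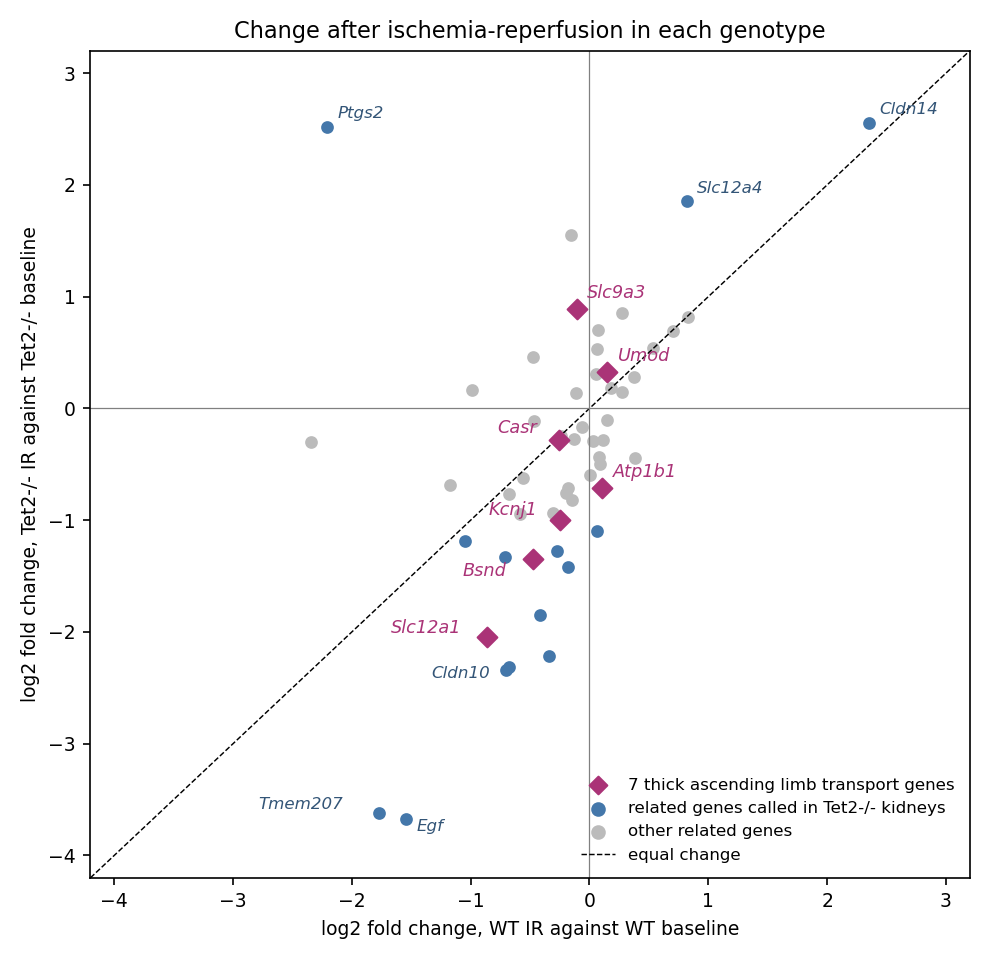
Log2 fold change after IR in WT kidneys (x axis) and in Tet2-/- kidneys (y axis) of the 7 genes (diamonds) and of 48 related genes (circles, filled blue where called in Tet2-/- kidneys), with a dashed line at equal change. Slc12a1, Bsnd, Kcnj1 and Atp1b1 lie below the line and Slc9a3 and Ptgs2 above it, and the interaction was called by edgeR for Ptgs2 and not for the 5 others, of which DESeq2 called Atp1b1.

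Markers of other cells moved in the same libraries. Other thick ascending limb markers were lower for 5 of 9 genes after IR in Tet2-/- kidneys, and their sum fell from between 507 and 624 FPKM at baseline to between 118 and 248 FPKM, beside 289 to 440.4 FPKM in WT IR kidneys. Proximal tubule markers, such as the megalin gene Lrp2, were lower for 6 of 9 genes, with sums of 3941 to 4635 FPKM at baseline and 966.5 to 1561 FPKM after IR in Tet2-/- kidneys. Distal convoluted tubule markers had 1 higher and 2 lower of 5, principal cell markers 1 lower of 7 and intercalated cell markers 1 lower of 5. Lower calls made up 11.6% of all genes.

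Higher calls, 12.7% of all genes in Tet2-/- kidneys after IR, included 5 of 5 podocyte markers, 7 of 7 tubular injury genes, 3 of 6 macrophage markers (with Csf1r, named after its values were seen, lower), 5 of the 5 neutrophil markers tested of 7 listed, and 1 of the 3 adipocyte markers tested of 7 listed. Neutrophil markers summed to 73.9 to 130.0 FPKM in Tet2-/- IR, 3.99 to 9.28 FPKM in WT IR and 0.596 to 2.75 FPKM in baseline libraries. Of this list Mpo and Elane, granule genes transcribed mainly in bone marrow precursors and not in mature neutrophils, were at most 0.023 and 0.029 FPKM in any library. Endothelial markers gave 0 calls of 5, with 0 at an unadjusted p under 0.05 and 0 in both respects with DESeq2, and lymphocyte markers 1 lower of 4. Replicate 3 of WT IR stood apart in both podocyte and endothelial markers, with sums of 3.23 FPKM against 24.9 and 24.9 FPKM and of 6.11 FPKM against 43.3 and 30.5 FPKM in the other WT IR libraries. Without it, edgeR gave Slc12a1 -1.41 (adjusted p = 0.133) and Bsnd -1.17 (adjusted p = 0.112) between genotypes after IR, and -0.83 (adjusted p = 0.411) and -0.43 (adjusted p = 0.411) for IR in WT kidneys. The part of these cell types in the values of Slc12a1 and Bsnd was not tested.

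For each of the 7 genes the profile over the 12 libraries was set beside those of 12197 genes, as the root mean square difference of log2(CPM + 1) values centred on each gene's mean. Slc12a1 was most like Lrrc66 (0.20), Slc16a7 (0.30), a monocarboxylate transporter, and Mep1a (0.33), a meprin subunit of the proximal brush border, against its own spread of 1.01. Bsnd was most like Sim1 (0.26), 5930403L14Rik (0.26) and Ift172 (0.26), and Atp1b1 like Wwp1 (0.11), Hmgn5 (0.12) and Magt1 (0.12). Kcnj1 was most like P3h2 (0.27), Scn4b (0.28) and Mme (0.28). Umod was most like Erbb4 (0.26), Stk32b (0.31) and Tmem72 (0.34), and Casr like Tmem72 (0.28), Fads6 (0.31) and Erbb4 (0.34), so that 2 of the 3 nearest profiles were shared. Slc9a3 was most like Defb1 (0.35), Ocln (0.40) and Emb (0.41). Among the 7 themselves, Kcnj1 and Casr differed by 0.36 and Umod and Casr by 0.41, whereas Slc12a1 and Umod differed by 0.96, and Umod was only at rank 3919 among the 12196 profiles nearest to Slc12a1. These likenesses share the 4 groups and the 12 libraries and are given as a description.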

How the data were processed

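According to the study's methods and the labels' processing notes, STAR aligned the reads to mm9, and HOMER then gave a count for each RefSeq transcript. The authors deposited these expected counts, not normalized, which rise in steps of 0.5 with 38.7% not whole, and FPKM of the same transcripts. Whole counts had been assumed in the design, and the values were therefore rounded. For the 5569 symbols with several transcripts the highest total was used. Reads shared by overlapping transcripts are not resolved, and strand is not given in the sources used here.

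Counts were tested in R 4.3.3 with edgeR 4.0.16 (TMM, filterByExpr, quasi-likelihood F test, Benjamini-Hochberg over all genes tested), each comparison on its own 6 libraries and the interaction on all 12. A call needed both an adjusted p below 0.05 and a log2 fold change above 1 in size, or the adjusted p alone for the interaction. Alternatives were other scalings, DESeq2 1.42.0, no filter, a minimum mean FPKM of 1, limma 3.58.1 on log2(FPKM + 1) and log2(FPKM + 0.1), the call with the fold limit changed, the replicate number as a block, all 12 libraries in a single fit, all transcripts, and each library left out. The main edgeR fit, DESeq2 and limma with a pseudocount of 1 were run on simulated counts with known changes in each comparison. The other alternatives were not simulated, and the simulated spread was the same for all genes. Python 3.11.15 and matplotlib 3.10.9 served for figures. The libraries came from different mice according to the methods.

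The 7 genes and the lists were chosen with earlier results of these data known. Every one of the 7 is named in every comparison. Of the 48 related genes, up to 3 in each direction with the largest change are named if they were called and reached a mean of 1 FPKM in a group, and genes outside this rule are said to be so or are listed among the calls. Some results are not reported here. Same-numbered libraries of WT baseline and WT IR correlated at 0.379, 0.339 and 0.364 in their deviations from the group means, so the numbers pair them, a pairing taken from these values only. In the other comparisons at least 1 of the 3 correlations was under 0.1.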

Additional observations from a re-analysis of the deposited data

Results flagged for a closer look

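Among the 7 genes no difference between the genotypes' responses to IR passed edgeR's quasi-likelihood test, and DESeq2 called that of Atp1b1 (-0.83, adjusted p = 0.0107). Of Tet2 and the related genes named here, 5 had a response that differed between genotypes by the interaction in edgeR's quasi-likelihood test over 12 libraries. The largest was that of Ptgs2, whose log2 fold change after IR was 4.77 higher in Tet2-/- than in WT kidneys, at levels under 3 FPKM in all libraries. Tet2 itself differed by -2.001, Pdzk1 by -1.84, Cldn10 by -1.60 and Irx1 by -1.60. The Tet2 call held in 18 of 22 alternatives, with an adjusted p of up to 0.0584, and the Irx1 call in 7 of 22, with an adjusted p of up to 0.119. The Tet2 difference follows from its higher level in the libraries labelled Tet2-/- at baseline and its lower level in those labelled Tet2-/- after IR.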

How the results depend on the processing

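Over the 7 genes and 5 comparisons, 665 alternative values were computed. Of these, 598 kept their direction and side of the threshold, 0 lost a call, 15 passed it only in the alternative (for 6 results) and 52 changed sign (for 18 results), none of them a called value. The calls of Slc12a1 and Bsnd after IR in Tet2-/- kidneys held throughout. Between genotypes after IR, 0 of the 7 were called lower, against 2 with DESeq2, 2 with the replicate block, 2 in the fit of all 12 libraries, 1 without the filter, 1 over all transcripts and 0 to 1 with a library left out. In Tet2-/- kidneys 0 to 1 were called higher after IR when a library was left out, and DESeq2 called 1 lower in the interaction. The causes were not tested.

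Signs changed for values that were not called. At baseline Atp1b1 was -0.023 with library sizes alone and -0.0295 with limma at both pseudocounts. Between genotypes after IR Umod was -0.23 with limma at both pseudocounts and -0.29 with the replicate block. For IR in WT kidneys Casr was 0.0169 with limma at a pseudocount of 0.1, and Slc9a3 was 0.058 and 0.0719 with limma. In the interaction Umod was -0.0644 and -0.065 with limma and -0.19 with the replicate block, and Casr was -0.0574 with RLE factors, -0.0589 with DESeq2, -0.0102 with the FPKM filter, -0.12 and -0.31 with limma, -0.45 with the replicate block and -0.0755 over all transcripts.

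With each library left out in turn, the log2 fold changes at baseline ran from -0.51 to 0.10 for Slc12a1, -0.45 to 0.10 for Umod, -0.39 to 0.27 for Kcnj1, -0.997 to 0.0329 for Casr, -0.70 to 0.0681 for Slc9a3 and -0.12 to 0.15 for Atp1b1. Between genotypes after IR they ran from -0.35 to 0.50 for Umod and -0.29 to 1.03 for Slc9a3. For IR in WT kidneys they ran from -0.14 to 0.39 for Umod, -0.49 to 0.15 for Kcnj1, -0.58 to 0.42 for Casr, -0.41 to 0.34 for Slc9a3 and -0.0327 to 0.22 for Atp1b1. For IR in Tet2-/- kidneys they ran from -0.0419 to 0.79 for Umod, -0.81 to 0.14 for Casr and -0.0522 to 1.29 for Slc9a3, and in the interaction from -0.24 to 0.68 for Umod, -0.67 to 0.44 for Casr and 0.0992 to 1.44 for Slc9a3.

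Counts over all genes moved more. DESeq2 called 350 genes at baseline (2 in edgeR), 1747 between genotypes after IR (996), 1073 for IR in WT kidneys (376) and 2815 in the interaction (1536). The fit of all 12 libraries called 1593 between genotypes after IR and 631 for IR in WT kidneys, and with a library left out the counts ran from 2 to 10 at baseline, from 294 (without WT IR replicate 1) to 942 between genotypes after IR, from 87 (without WT baseline replicate 3) to 548 for IR in WT kidneys, from 3254 to 4278 for IR in Tet2-/- kidneys and from 697 (without Tet2-/- baseline replicate 3) to 2044 in the interaction. Library sizes alone changed the split from 2078 higher and 1896 lower to 2860 and 1397 for IR in Tet2-/- kidneys, from 373 and 623 to 427 and 493 between genotypes after IR, and from 634 and 902 to 1129 and 700 in the interaction. The replicate block, with 987 calls for IR in WT kidneys, changed no call of the 7 genes there. In the other comparisons the libraries share only a number. There the block gave 4 calls at baseline, 1093 between genotypes after IR, 4193 for IR in Tet2-/- kidneys and 2101 in the interaction. It added Slc12a1 and Bsnd between genotypes after IR and Kcnj1 for IR in Tet2-/- kidneys (-1.18, adjusted p = 0.00932 in edgeR), where each library correlated best with its own number, a hint from the data only. Depth did not limit the 7 genes, the least abundant of which had at least 328 counts in every library.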
